A study of Homo sapiens with 2 samples.

Results

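Chromatin accessibility was examined at the loci of 10 imprinted genes in CAMA-1, an untreated human breast cancer cell line of luminal epithelial origin grown as adherent cultures. The genes were H19, IGF2, KCNQ1OT1, MEG3, DLK1, PEG3, PEG10, MEST, SNRPN and GNAS. They were taken by name and not by measured values, though earlier results of these data were known. ATAC-seq, which uses the Tn5 transposase to tag and sequence accessible DNA, had been performed on 2 biological replicates of 50000 cells each. A locus was the GENCODE gene body with 20 kb on either side, on the hg38 build. The loci spanned 926 kb in all and held 107 of the 245736 peaks of replicate 1 and 110 of the 259745 peaks of replicate 2. Joined across replicates, these peaks formed 117 regions, of which 97 were called in both replicates, among 215195 such regions genome-wide. Both replicates belong to the same condition, so the values are given per replicate and no groups were tested.

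An imprinted gene is transcribed from the copy inherited from 1 parent only. The choice is carried by DNA methylation that is laid down in the egg or the sperm at a control region and kept on that parental copy after fertilization. Maternally methylated control regions overlap promoters, such as those of KCNQ1OT1, PEG3, PEG10, MEST and SNRPN. The control regions of the H19 and IGF2 domain and of the DLK1 and MEG3 domain are methylated on the paternal copy and lie between genes. The peak lists do not separate the parental alleles, so each value sums over all copies of a locus.

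The fold enrichment of a peak is the ratio of its height, in overlapping reads, to the background of the peak caller, with 1 added to each. The background was 3.35 reads for all peaks of replicate 1 and 3.52 for all peaks of replicate 2. The ratio therefore takes no account of the coverage around a peak, nor of the number of copies of a locus. The authors report copy-number aberrations in CAMA-1, and their part in these values was not tested. The height of each peak was recovered from the ratio. The lowest peak in either list had a height of 11, so accessibility below that height was not detectable. Each height is followed by an exact 95% Poisson interval, which covers counting error only. All 7 luminal markers (EPCAM, KRT8, KRT18, KRT19, ESR1, GATA3 and FOXA1) had a peak within 1 kb of a transcription start site (TSS) in both replicates. The same held for the 3 mesenchymal genes ZEB1, TWIST1 and PDGFRB and for the blood marker CD14, whereas the blood markers PTPRC, CD3E and SPI1 had none. Whether other cells contributed to any peak was not tested.

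The 97 shared regions were unevenly spread over the loci. IGF2 held 20, GNAS 19, MEG3 15, DLK1 and SNRPN 12 each, KCNQ1OT1 8, MEST and PEG3 4 each, PEG10 3 and H19 none. Per 10 kb, IGF2 held 2.89 shared regions against 1.49 within 1 Mb of the locus, GNAS 1.70 against 0.79 and DLK1 2.28 against 1.47. SNRPN (0.615 against 0.33) and PEG10 (0.562 against 0.445) were also above their surroundings. MEG3 (1.23 against 1.445), PEG3 (0.566 against 0.665) and MEST (0.663 against 1.255) were below theirs. KCNQ1OT1, a transcript that runs for over 100 kb inside KCNQ1, held 0.561 per 10 kb against 1.30 around it. Of the shared regions, 42 lay within 1 kb of an annotated TSS of any gene, 32 in introns, 10 in exons and 13 between genes. DLK1 accounted for 8 of the 13 intergenic regions, and MEG3 for 3 and IGF2 for 2.

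**Figure D1:**
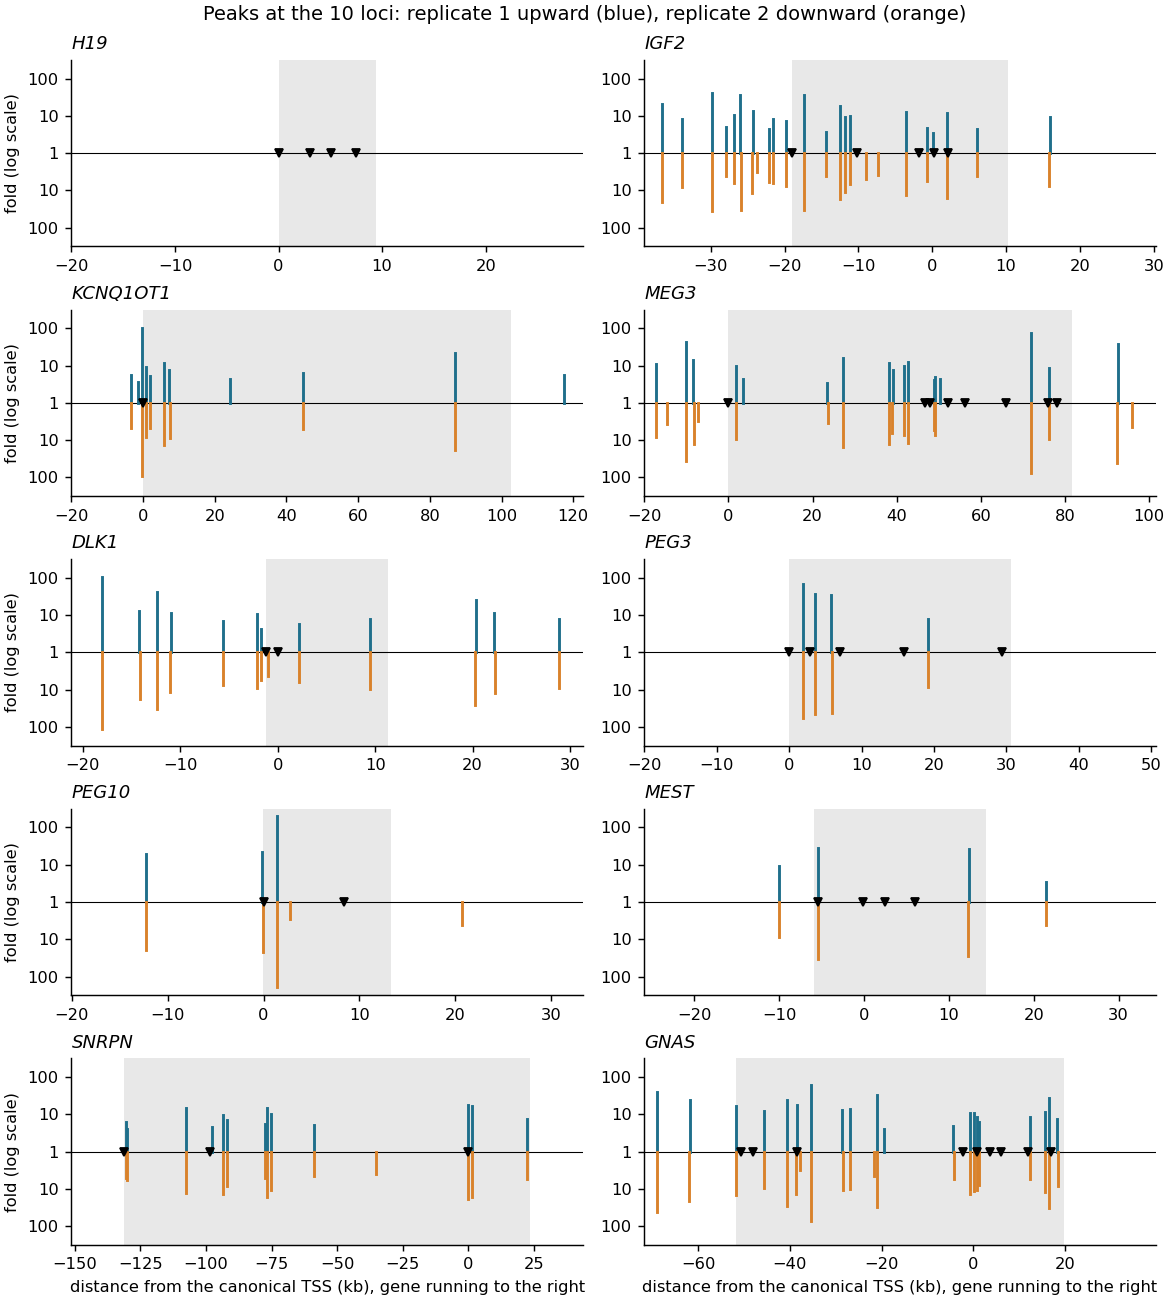
Fold enrichment (log scale) of every peak at the 10 loci against its distance in kb from the canonical TSS, with the gene running to the right, replicate 1 drawn upward in blue and replicate 2 downward in orange. Grey marks the gene body and triangles mark groups of TSSs. The replicates mirror each other at 97 of the 117 regions, and the H19 panel holds no peak.

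The replicates gave nearly the same picture of these loci. Of the locus peaks of replicate 1, 99 of 107 (92.5%, Wilson 95% interval 85.9 to 96.2%) overlapped a peak of replicate 2 by at least 1 bp, against 90.2% of all peaks. Of those of replicate 2, 98 of 110 (89.1%, 81.9 to 93.6%) overlapped a peak of replicate 1, against 84.7% of all peaks. The fold enrichment of the 97 shared regions differed between replicates by a median log2 ratio of 0.01 with an SD of 0.27. For 93 of them (95.9%) the replicates lay within 1.5-fold of each other, as did 94.3% of shared regions genome-wide. The 20 regions called in a single replicate were weak, with a highest fold enrichment of 5.75 in replicate 1 and 4.86 in replicate 2.

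**Figure D2:**
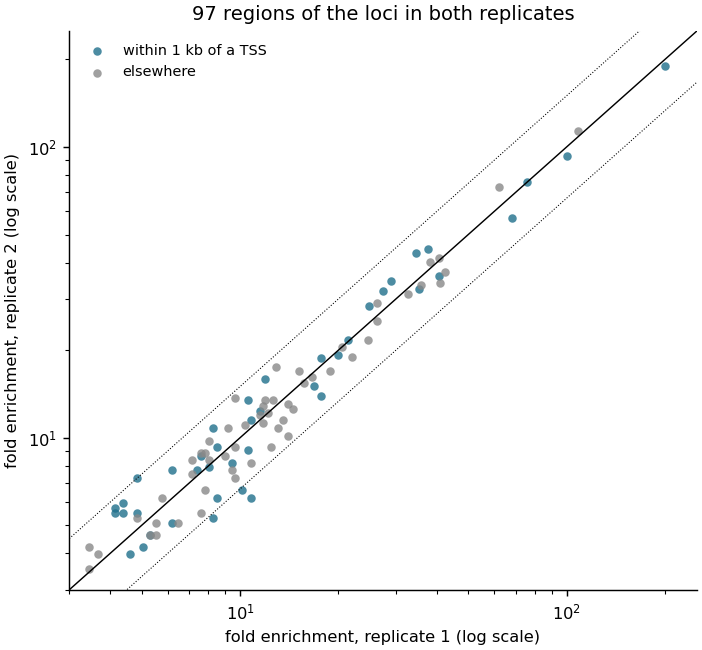
Fold enrichment in replicate 2 against replicate 1 (both log scales) for the 97 shared regions, coloured by whether they lie within 1 kb of a TSS. The solid line marks equal values and the dotted lines a 1.5-fold difference, and 93 regions lie between the dotted lines.

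A TSS peak, within 1 kb of an annotated TSS of the gene, was present in both replicates for 9 of the 10 genes, all but H19. All 7 protein-coding genes had such a peak, against 79.3% of all protein-coding genes, and 2 of the 3 long noncoding RNA (lncRNA) genes did, against 43.8% of all lncRNA genes. Over all annotated genes the share was 45.7%. When only the TSS of the Ensembl canonical transcript was used, 6 of the 10 genes had a peak in both replicates, against 42.7% of all genes. These 6 were IGF2, KCNQ1OT1, PEG3, PEG10, SNRPN and GNAS. The 42.7% is over 62663 annotated genes, of which 20033 are protein-coding, so it is not a like background for the 10. Among protein-coding genes alone, 89.1% of the CpG-rich canonical promoters and 44% of the others had a peak in both replicates. The strength of the TSS peaks spanned a wide range, from a mean fold enrichment of 8.90 at MEG3 to 195 at PEG10. Their median over the 9 genes, which include 2 lncRNA genes, was 29.6, against 52.6 over the protein-coding genes with a TSS peak. In order of the mean, the genes were PEG10, KCNQ1OT1, PEG3, MEST, GNAS, SNRPN, IGF2, DLK1 and MEG3. The replicate values of MEST and GNAS overlapped, as did those of DLK1 and MEG3, whereas other neighbours in this order did not overlap.

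**Figure D3:**
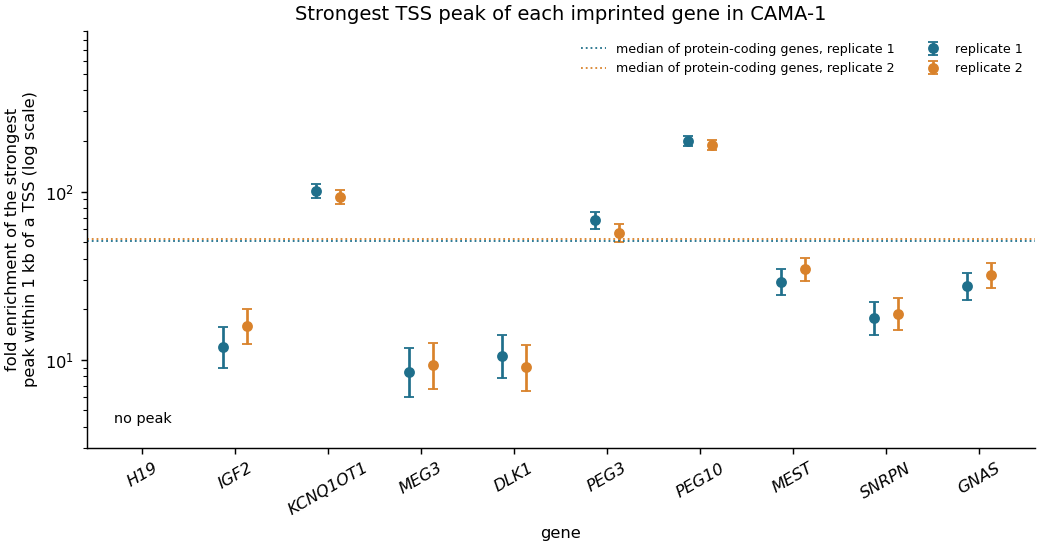
Fold enrichment (log scale) of the strongest TSS peak of each gene in each replicate, with 95% Poisson intervals of the height as error bars and dotted lines at the medians of all protein-coding genes (51.1 and 52.6). PEG10, KCNQ1OT1 and PEG3 lie above the dotted lines, 6 genes lie below them and H19 has no peak.

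PEG10, a gene derived from a retrotransposon that is active in placenta, carried the strongest peak of all the loci. The peak lay at chr7:94656712-94658761, just inside the gene, with a height of 870 (813 to 930) in replicate 1 and 860 (803 to 919) in replicate 2. Its fold enrichment was 200.4 and 190.4 (mean 195 ± 7.09, SD, n = 2), at percentiles 99.0 and 98.8 of the strongest TSS peaks of protein-coding genes. The neighbouring gene SGCE, which encodes epsilon-sarcoglycan and is transcribed in the opposite direction, has a TSS within 1 kb of the same peak. The TSS group of PEG10 itself lay under a separate, weaker region of 21.4-fold and 21.7-fold.

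KCNQ1OT1, the antisense lncRNA that silences neighbouring genes of the KCNQ1 domain on the paternal copy, had the next strongest TSS peak. Its height was 436 (396 to 479) in replicate 1 and 421 (382 to 463) in replicate 2, at chr11:2699718-2700950. The fold enrichment was 100.6 and 93.3 (mean 96.9 ± 5.12, SD, n = 2), at percentiles 84.3 and 80.3 of protein-coding TSS peaks. The region spans the promoter within an intron of KCNQ1, and it holds over its whole width 3 matches to TGCCGC, none of them in its central 300 bp, the hexamer bound by the imprint-protecting zinc finger protein ZFP57 when methylated.

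PEG3, which encodes a zinc finger protein, carried the widest region of the loci. It covered 2736 bp at chr19:56837429-56840164, within the gene, and its nearer edge lay 518 bp and 497 bp from the TSS group that includes the canonical TSS. The height was 294 (261 to 330) in replicate 1 and 256 (226 to 289) in replicate 2, for a fold enrichment of 67.9 and 56.8 (mean 62.4 ± 7.81, SD, n = 2). Flanking regions followed further into the gene, with 37.7-fold and 44.4-fold at chr19:56836947-56837333 and 34.5-fold and 43.3-fold at chr19:56834456-56835136. ZIM2 and MIMT1 have TSSs at the same wide region and thus share its values.

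The wide PEG3 region held 13 matches to CCATNTT, a core of the site bound by the zinc finger factor YY1. Of these, 12 read in the direction of the PEG3 gene, on the minus strand. The 13 matches spanned 2381 bp with a median step of 138 bp. Among the 3240 shared regions genome-wide of 2 to 3.5 kb, the median was 1 match and no other region had as many as 13. The same region held 8 matches to TGCCGC, and 19 other regions of that width had as many. The stretch with the densest matches, chr19:56838839-56839138 (hg38, plus strand), is shown with the matches in capitals, each reading AAGATGG because the motif lies on the other strand.
PEG3 region: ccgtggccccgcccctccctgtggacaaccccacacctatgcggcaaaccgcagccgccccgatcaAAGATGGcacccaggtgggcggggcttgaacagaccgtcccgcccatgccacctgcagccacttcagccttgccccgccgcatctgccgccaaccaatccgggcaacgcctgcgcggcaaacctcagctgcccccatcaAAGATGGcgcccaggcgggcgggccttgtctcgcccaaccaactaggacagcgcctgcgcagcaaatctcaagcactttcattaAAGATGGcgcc

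**Figure D4:**
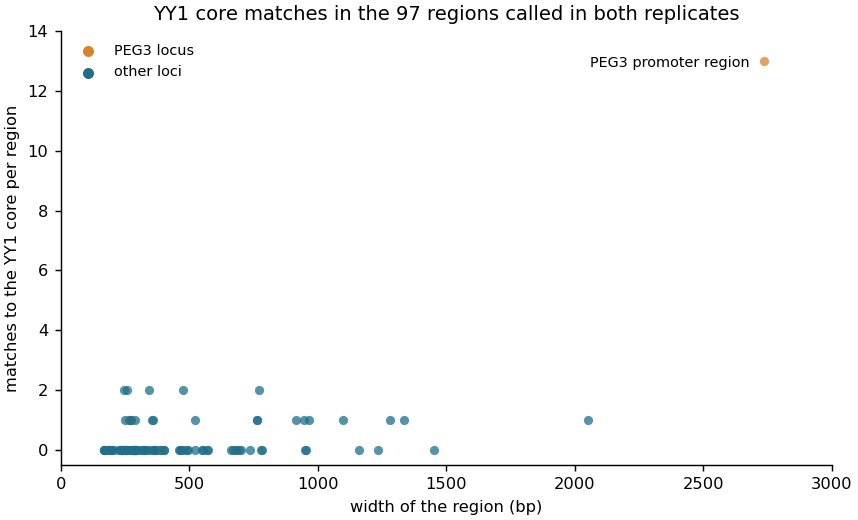
Number of matches to the YY1 core CCATNTT in each of the 97 shared regions against the width of the region in bp. The wide PEG3 region has 13 matches, and every other region has between 0 and 2.

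MEST, which encodes a hydrolase-like protein expressed in mesoderm, had a TSS peak at its upstream promoter only. The peak at chr7:130486053-130487150 spanned the most upstream group of TSSs, with heights of 125 (104 to 149) and 155 (132 to 181) and fold enrichments of 29.0 and 34.5 (mean 31.7 ± 3.89, SD, n = 2). The group that holds the canonical TSS, chr7:130491329-130492472, is the promoter known to be methylated on the maternal copy. The nearest peak lay 4179 bp from it in replicate 1 and 4185 bp in replicate 2. Neither of the other 2 groups had a peak within 1 kb. An intronic region of the gene, chr7:130504096-130504618, was nearly as strong as the promoter peak, at 26.2-fold and 29.0-fold.

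SNRPN, which encodes a spliceosome protein and whose promoter is part of the imprinting centre of the Prader-Willi and Angelman syndrome region, had a weak but repeated peak over its canonical TSS. The heights were 76 (59.9 to 95.1) and 84 (67.0 to 104) and the fold enrichments 17.7 and 18.8 (mean 18.3 ± 0.763, SD, n = 2), at percentiles 16.6 and 17.6 of protein-coding TSS peaks. A region in the following intron, chr15:24956160-24956923, was almost as strong, at 16.6-fold and 16.1-fold. The far upstream TSS group had peaks, the nearer with its midpoint at −130196 bp from the canonical TSS, of at most 6.21-fold and 5.75-fold, and the group between them had a peak in replicate 1 only, at 4.602-fold. The bases of the promoter peak that precede the TSS group, chr15:24954827-24954934 (hg38, plus strand), hold 1 match to the TGCCGC hexamer, in capitals and read as GCGGCA because it lies on the other strand.
SNRPN promoter: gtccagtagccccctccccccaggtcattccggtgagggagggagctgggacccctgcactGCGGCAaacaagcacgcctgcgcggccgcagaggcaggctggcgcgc

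GNAS encodes the stimulatory G protein alpha subunit and has several alternative promoters, and 6 of its 9 TSS groups had a peak in both replicates. From upstream to downstream, the promoter of NESP55 had fold enrichments of 16.8 and 15.04. The antisense transcript GNAS-AS1 starts nearby and had a peak of 24.9-fold and 28.3-fold at its TSSs. The promoter of the extra-large form XLαs had 17.7-fold and 13.9-fold. The peak within 1 kb of the A/B TSS group had 10.6-fold and 13.5-fold, at 579 bp and 594 bp from that group. Its region lay closer, at 271 bp, to the TSS group of the Gsα form, which is expressed from both copies in most tissues. The peak therefore cannot be credited to the A/B promoter alone. The peak over the canonical Gsα TSS itself had 10.8-fold and 11.5-fold. The strongest TSS peak of the gene was near its downstream end, over minor TSSs, with 27.4-fold and 31.8-fold (mean 29.6 ± 3.15, SD, n = 2). The strongest region of the whole locus, chr20:58855757-58856525, began 2491 bp from the XLαs TSSs in an exon and reached 62.1-fold and 73.0-fold.

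IGF2, the fetal growth factor, had peaks near all 5 of its TSS groups, but none of them was strong. The strongest, over the TSS group nearest to the end of the gene, had heights of 51 (38.0 to 67.1) and 71 (55.5 to 89.6) and fold enrichments of 11.96 and 15.9 (mean 13.9 ± 2.80, SD, n = 2), at percentiles 11.2 and 15.1 of protein-coding TSS peaks. The group with the canonical TSS had 4.83-fold and 5.53-fold, from a peak that also counted for the next group upstream. The strongest regions of the whole locus lay further upstream. They were at chr11:2156327-2157280 in an intron (35.9-fold and 33.6-fold), and at chr11:2164995-2165776 (35.4-fold and 32.5-fold) and chr11:2168626-2169785 (40.7-fold and 36.0-fold), both near TSSs of TH, the gene of tyrosine hydroxylase.

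At the DLK1 and MEG3 domain the strong peaks lay away from the promoters. DLK1, a transmembrane ligand related to the Notch ligands, had a TSS peak of 10.6-fold and 9.07-fold (mean 9.83 ± 1.07, SD, n = 2), at 727 bp and 778 bp from an upstream TSS. Its canonical TSS group had no peak within 1 kb in replicate 1 and a peak of 4.201-fold in replicate 2. In contrast, an intergenic region at chr14:100708328-100709293, with its midpoint at −18082 bp from the canonical TSS, had heights of 470 (428 to 514) and 511 (468 to 557). Its fold enrichment of 108.4 and 113.2 (mean 111 ± 3.42, SD, n = 2) was at percentiles 98.7 and 98.9 of all peaks.

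MEG3, an lncRNA of the maternal copy, had TSS peaks of 8.51-fold and 9.29-fold at most (mean 8.90 ± 0.547, SD, n = 2), at a minor TSS far into the gene. The group with the most annotated TSSs, 13, chr14:100826098-100826195, which includes the RefSeq start, had no peak closer than 2009 bp in replicate 1 and 1936 bp in replicate 2. The strongest region of the locus, chr14:100850986-100851648, had heights of 328 (293 to 365) and 343 (308 to 381) and fold enrichments of 75.7 and 76.1. It lay in the gene, 742 bp from the start of the microRNA gene MIR770. Other strong regions were at chr14:100768775-100769720 upstream (42.3-fold and 37.1-fold) and at chr14:100871281-100872559 downstream (38.2-fold and 40.2-fold).

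The strongest regions of both genes held a match to the core of the motif of CTCF, the zinc finger protein that organizes chromatin loops and insulates imprinted domains. The DLK1 match lies near the edge of its region. The matches are shown 5′ to 3′ on the strand of the motif with 8 flanking bases on either side, the core in capitals, at chr14:100851308-100851337 (hg38, plus strand) and chr14:100708338-100708367 (hg38, minus strand).
MEG3 region: ggttttgcCCACCAGGGGGCAGcagagggt
DLK1 upstream region: acccaaagCCCCTTGAGGGCGGtgagcaac

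Windows upstream of H19 and MEG3 were searched for peaks, because the intergenic control regions lie upstream of these genes. Between 10 and 20 kb upstream of the Ensembl canonical TSS of MEG3 there were 2 peaks in replicate 1 (10.8-fold and 42.3-fold) and 3 in replicate 2 (8.18-fold, 3.76-fold and 37.1-fold). That TSS belongs to a far upstream transcript. The same window measured from the RefSeq start held 1 peak in each replicate, of 15.6-fold and 15.5-fold. This window was chosen after the data had been seen. Its peak, at chr14:100806447-100806803, lies in an intron of the annotated MEG3 gene, which begins at the far upstream TSS. The coordinates of the control region were not used, so neither window is known to cover it.

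H19, the maternally expressed lncRNA that neighbours IGF2, had no peak within its gene body or 20 kb either side in either replicate. The peak-free stretch around it ran over 118164 bp in replicate 1 (chr11:1953751-2071914) and 105084 bp in replicate 2 (chr11:1966820-2071903). Of the intervals between neighbouring peaks genome-wide, 0.897% and 0.936% were as long, and 1.40% and 1.47% of those on chromosome 11. These shares count intervals and not bases. A gene taken by name falls more often in a long interval, so the shares do not give how rare such a stretch is around a gene. The median interval genome-wide was 3339 bp and 3320 bp. The stretch covered LINC01219, MRPL23-AS1, H19, its microRNA MIR675 and part of MRPL23. In the surrounding 1 Mb on either side, 1.53 shared regions per 10 kb were called.

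Between 1 and 7 kb upstream of H19 there was no peak, whether measured from the Ensembl canonical TSS or from the RefSeq start. Both intervals lie inside the peak-free locus, so this adds nothing to its lack of peaks. The stretch above the H19 TSS group at chr11:1996280-1997875 was not searched separately. The control region is known to lie a few kb upstream of the gene, but its coordinates were not used here. The canonical interval, chr11:2005552-2011552, holds 1 match to the CTCF core. The RefSeq-anchored interval, chr11:2002266-2008266, which was chosen after the data had been seen, holds 3, and the average over chromosome 11 is 0.279 per 10 kb. Both 10 to 20 kb windows upstream of MEG3 hold 0. The nearest pair are identical over the core and contain the reverse complement of the TGCCGC hexamer, as GCGGCA, so that both motifs overlap there. They are shown because CTCF binding to the unmethylated copy is the known insulator of this domain. The cores are in capitals with 8 flanking bases, 5′ to 3′ on the strand of the motif, at chr11:2002606-2002635 and chr11:2003011-2003040 (hg38, minus strand) and chr11:2007222-2007251 (hg38, plus strand), with their centres 1355, 1760 and 5971 bp upstream of the RefSeq start.
H19 upstream site 1: ggaagtggCCGCGCGGCGGCAGtgcaggct
H19 upstream site 2: agaagtggCCGCGCGGCGGCAGtgcaggct
H19 upstream site 3: ttcaccacCCAGGGGAGGGCAGggccgccc

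Most of the 10 genes have several groups of TSSs, with TSSs of the same gene joined when within 1 kb of each other. Of 43 such groups, 23 had a peak in both replicates, against 38.1% over all annotated genes. That share covers genes of all types, whereas 7 of the 10 genes are protein-coding, so the 2 are not directly comparable. A peak within 1 kb of more than 1 group counted for each of them, as at IGF2, PEG3 and GNAS. H19 had 0 of 4, IGF2 5 of 5, KCNQ1OT1 1 of 1, MEG3 3 of 8, DLK1 1 of 2, PEG3 3 of 5, PEG10 1 of 2, MEST 1 of 4, SNRPN 2 of 3 and GNAS 6 of 9. The promoter window, from 250 bp before to 50 bp after the most upstream TSS of a group, was CpG-rich (GC content of at least 50% and a CpG observed-to-expected ratio of at least 0.6) in 10 of the 43. A peak was present in both replicates at 6 of these 10 and at 17 of the other 33. Genome-wide, 89.1% of the CpG-rich canonical promoters of protein-coding genes had a peak in both replicates, and 44% of those that were not CpG-rich. The groups of the 10 genes include alternative and lncRNA TSSs, so these shares are not of the same kind of promoter. The 4 CpG-rich groups without a shared peak were the main group of MEG3 (CpG ratio 0.682), the canonical groups of DLK1 (1.06) and MEST (0.821) and an internal group of PEG10 (0.670). The 4 promoter windows of H19 had CpG ratios of 0.238 to 0.414 and none was CpG-rich.

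**Figure D5:**
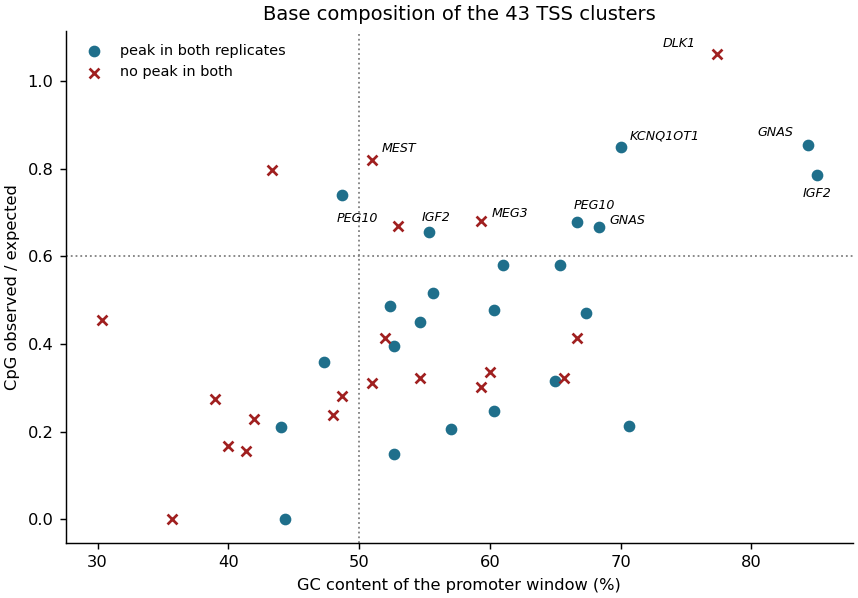
CpG observed-to-expected ratio against GC content (%) of the promoter windows of the 43 TSS groups, with circles for groups with a peak in both replicates and crosses for the others. Dotted lines mark a GC content of 50% and a ratio of 0.6, and 4 of the 10 named CpG-rich groups, of DLK1, MEST, MEG3 and PEG10, are crosses.

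Across the loci, peaks near TSSs were no stronger than the rest. The median fold enrichment in replicate 1 was 10.4 for both the 44 peaks near a TSS of any gene and the 63 other peaks, and in replicate 2 it was 8.85 for 44 and 9.95 for 66. The TSS median divided by the other median was 0.944 ± 0.0786 (SD, n = 2), against 1.66 ± 0.0208 over all peaks genome-wide. The ratio turned to 1.06 when the flanks were cut to 5 kb and to 1.49 when only peaks within 100 bp of a TSS counted as TSS peaks, so its direction depends on these limits.

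Motif matches were counted in the central 300 bp of the 97 shared regions, on both strands. The CTCF core was present in 11 regions (11.3%), against 6.62% of all shared regions genome-wide. TGCCGC was present in 14 (14.4%), against 5.96%, and CCATNTT in 15 (15.5%), against 17.9%. When whole regions were searched, the shares for TGCCGC were closer, at 15.5% against 10.5%. The regions of the loci were richer in GC, with a median of 57.0% against 49%, and 16 of them (16.5%) were CpG-rich against 6.95% of all, which bears on GC-rich motifs such as the first pair. How much of their excess follows from GC content was not tested. At GNAS, the regions at the NESP55 promoter and at the GNAS-AS1 TSSs each held both a CTCF core and a TGCCGC hexamer. So did the MEG3 regions chr14:100850986-100851648 and chr14:100855489-100855740 and the region chr11:2166173-2166409 of the IGF2 locus.

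Among 27 other imprinted genes of the same domains, 22 had a TSS peak in both replicates. They were 15 of 19 protein-coding genes, near the 79.3% of all protein-coding genes, and 7 of 8 lncRNA genes, against 43.8% of all lncRNA genes. The strongest were SGCE, which shares its peak with PEG10, and PHLDA2, a growth-restraining gene of the KCNQ1 domain, with 67.2-fold and 71.4-fold. The weakest were RTL1, a retrotransposon-derived gene of the DLK1 and MEG3 domain (4.37-fold and 3.98-fold), and IGF2-AS (4.83-fold and 5.53-fold). The 5 without were MAGEL2, NDN and MKRN3 of the SNRPN domain, MESTIT1, antisense to MEST, and USP29, next to PEG3. The median fold enrichment of the 22, which include the 7 lncRNA genes, was 25.1, against 52.6 over protein-coding genes with a TSS peak. Other shared peaks were those of DIO3 with DIO3OS, ZIM2 and MIMT1 with PEG3, SNURF with SNRPN and IGF2-AS with IGF2. The counts and the median include them.

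Of 16 imprinted genes elsewhere in the genome, 13 had a TSS peak in both replicates, all among the 15 protein-coding ones, against 79.3% of all protein-coding genes. Their median fold enrichment was 36.7, against 52.6. ZNF597 and NAA60 were highest and share a peak of 74.3-fold and 75.8-fold. DIRAS3, a RAS-related growth suppressor, was lowest (5.52-fold and 7.52-fold), followed by ZDBF2 (8.05-fold and 7.52-fold). HYMAI, NAP1L5 and NNAT had none.

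Of the genes that set or keep imprints, all protein-coding, 12 of 16 had a TSS peak in both replicates, near the 79.3% of all protein-coding genes. Their median fold enrichment was 72.5, against 52.6. CTCF (143.6-fold and 137.1-fold) and DNMT1, the maintenance DNA methyltransferase (106.5-fold and 138.2-fold), were highest. TET1, an enzyme that oxidizes methylcytosine (6.21-fold and 3.98-fold), and ZNF445, a zinc finger protein that protects imprints (12.4-fold and 15.7-fold), were lowest. Of the 4 without a shared peak, CTCFL, DNMT3L and DPPA3 are germline or early embryo genes and had no peak in either replicate. ZFP57 had a peak of 3.68-fold in replicate 1 only.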

How the data were processed

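ATAC-seq libraries of 2 biological replicates of CAMA-1 cells (50000 cells each) were analysed. Per the submitters' processing notes, the authors used Trim Galore 0.6.5, Bowtie2 2.3.5.1, MACS2 2.2.6 and hg38, and peaks were called in each replicate separately. MACS2 settings are not given in the sources used here. The authors deposited, for each peak, a score (the whole-number part of 10 times the −log10 of the q-value) and a fold enrichment. The latter is a ratio to a background that was the same for all peaks of a replicate. They also deposited 2 columns on the −log10 scale, for the p-value and the q-value. The library depth and read counts are not in the lists, so precision was judged from the heights. Heights were recovered from the even step between deposited ratios, with a largest deviation of 6.98e-05 and 7.91e-05.

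Genes and TSSs came from GENCODE 44, RefSeq starts from RefSeq on GRCh38.p14 and sequences from hg38. Peaks of the replicates that overlapped by at least 1 bp formed a region. Motif shares were counted on both strands in the central 300 bp of a region, and matches of single named regions over the whole region. With 1 condition, no test over samples was made. The named genes are the 10 members, and from 3 further lists those without a TSS peak and the 2 highest and 2 lowest by mean fold enrichment. The members and lists were chosen with earlier results of these data known. Alternative settings comprised a −log10 q of at least 10, flanks of 5 and 50 kb, TSS distances of 100 bp and 3 kb, canonical TSSs, a reciprocal overlap of 50%, assignment by midpoint, the score, other ranks and windows, and each replicate alone. Some items of the fixed lists are not reported here. The functions were tested on simulated data. The scripts ran under Python 3.11.15 with scipy 1.17.1, matplotlib 3.10.9 and numpy 2.4.6.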

Additional observations from a re-analysis of the deposited data

How the results depend on the processing

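No paired analysis was possible because there is only 1 condition. Of 74 alternative values for 28 results, 57 stayed within 1.5 times the reported count or within 1 SD between replicates for other values. A replicate alone could not pass the limit of 1 SD, because with 2 replicates each lies within 1 SD of their mean. The H19 windows, inside a peak-free locus, could not change either. These settings are therefore no evidence of stability. The ratio of TSS peaks to other peaks turned from 0.944 to 1.06 with flanks of 5 kb and to 1.49 with TSS peaks within 100 bp, and fell to 0.803 with flanks of 50 kb. Within 100 bp of a TSS, 12 of 43 TSS groups had a shared peak, against 23. The MEG3 window held 1 peak per replicate from the RefSeq start, an alternative chosen after seeing the data, against a mean of 2.5. Searched whole, 24 regions (24.7%) held CCATNTT, against 15 in the central window, and so did 26.4% of all regions. For TGCCGC the whole-region shares were 15.5% against 10.5%, and for the CTCF core 15.5% against 9.66%. With each replicate alone, the regions numbered 107 to 110, the genes with a TSS peak 9 and the TSS groups 24, the share found again was 89.1 to 92.5% and the ratio 0.889 to 1. The canonical TSS alone lowered IGF2 to 5.18-fold and GNAS to 12.2-fold and gave no shared value for H19, MEG3, DLK1 and MEST. Ranks among the TSS peaks of all annotated genes were higher for all 9 genes. The causes were not tested. Peaks with a height under 11 are not in the lists, so a weaker signal at H19 was not detectable.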
